A study of Mus musculus with 21 samples.

Results

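The genes described here encode interstitial matrix and fibroblast products: *Dcn*, *Lum*, *Col1a1*, *Col1a2*, *Col3a1*, *Col6a1*, *Ltbp2*, *Prrx1*, *Fn1* and *Sparc*, 10 of the 27179 genes listed in each count table. They were taken by name, and 4 of them (*Dcn*, *Col6a1*, *Ltbp2* and *Prrx1*) were picked because they differed in opposite directions with age and with MCC950 in these same libraries. The differences of the 10 genes between groups are therefore given as descriptions, with no p-value for any of them, and counts of those past the threshold of the fit over all genes stand beside the share of all genes past it. The study sequenced mRNA of podocyte fractions from individual wildtype male C57BL/6J mice, in which digested kidney cortex was labelled with nephrin antibodies and captured with magnetic beads. There were 6 libraries of young untreated mice of 4 months by the labels (the study's methods give another number of these mice, and all 6 were used), 7 middle-aged mice of 19.5 months that received saline, and 8 middle-aged mice of 19.5 months that received MCC950 at 10 mg/kg for 6 weeks. MCC950 is a small-molecule inhibitor of the inflammasome sensor NLRP3, and the plots label these mice NLRP3i. The young mice were untreated, so age and saline injection cannot be told apart in the comparison of middle-aged with young mice.

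The interstitial matrix is the meshwork of fibrillar collagens, small proteoglycans and glycoproteins between tubules, vessels and glomeruli, and fibroblasts and pericytes make most of it. Fibrillar collagens give it tensile strength, small leucine-rich proteoglycans such as decorin and lumican bind the fibrils and set their spacing, and fibronectin links the fibrils to integrins on cells. An expansion of this matrix is the hallmark of kidney fibrosis, which becomes more frequent with age. Podocytes, the epithelial cells of the glomerular filter, normally rest on a basement membrane of collagen IV and laminin, which is distinct from the interstitial matrix.

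The libraries held 27375870 to 36827823 counts in young, 45772937 to 84876399 in saline-treated and 35440472 to 58247271 in MCC950-treated mice, and every saline-treated library was deeper than every young library. Mitochondrial genes took 51.5% to 80.4% of the counts in young, 63.0% to 79.2% in saline-treated and 49.9% to 63.7% in MCC950-treated libraries, so this share was lower with MCC950, with little overlap. The fraction was checked with lists of markers, summed as CPM (counts scaled to library size, normalised with TMM, which sets libraries to a common composition). The 10 podocyte markers summed to 757 to 1701 CPM in young, 300 to 548 CPM in saline-treated and 397 to 661 CPM in MCC950-treated libraries. The 8 fibroblast markers summed to 70.4 to 114.8 CPM, 36.4 to 68.4 CPM and 40.3 to 73.3 CPM in the same order. No marker of these lists was at 0 in all libraries of a group, and markers of proximal tubule, endothelium, mesangium, macrophages and B cells were detected as well, so the libraries hold RNA of several cell types. In such bulk samples fewer cells of a type and less RNA per cell cannot be told apart.

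*Dcn* and *Lum* are neighbours on chromosome 10 of GRCm38, from 97479500 to 97518163 and from 97565501 to 97572703. The collagen I chains are on different chromosomes, *Col1a1* on chromosome 11 from 94936224 to 94953042 and *Col1a2* on chromosome 6 from 4505618 to 4541543. *Col3a1* lies on chromosome 1 from 45311538 to 45349706, and *Sparc* on chromosome 11 from 55394159 to 55420080. RefSeq promoter sequences on GRCm38.p6 were at hand for 6 of the 10 genes, *Col1a2*, *Col3a1*, *Col6a1*, *Ltbp2*, *Prrx1* and *Sparc*. The promoters of *Col1a2*, *Col3a1* and *Sparc* are printed because *Col1a2* and *Sparc* varied together across mice, while *Col3a1* varied with other members of the group. Each line gives the 250 bases before the annotated start, 5′ to 3′ on the strand of the gene: chr6:4505368-4505617 (plus strand) for *Col1a2*, chr1:45311288-45311537 (plus strand) for *Col3a1* and chr11:55420081-55420330 (minus strand) for *Sparc*. Capitals mark matches to the letters CCAAT and TATAAA, the motifs searched, and their positions are counted back from the start.
*Col1a2*: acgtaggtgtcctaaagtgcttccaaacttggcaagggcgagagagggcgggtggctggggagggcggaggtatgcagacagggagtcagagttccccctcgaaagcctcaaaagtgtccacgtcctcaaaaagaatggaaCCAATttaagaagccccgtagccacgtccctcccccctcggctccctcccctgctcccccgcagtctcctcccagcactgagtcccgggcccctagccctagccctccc
*Col3a1*: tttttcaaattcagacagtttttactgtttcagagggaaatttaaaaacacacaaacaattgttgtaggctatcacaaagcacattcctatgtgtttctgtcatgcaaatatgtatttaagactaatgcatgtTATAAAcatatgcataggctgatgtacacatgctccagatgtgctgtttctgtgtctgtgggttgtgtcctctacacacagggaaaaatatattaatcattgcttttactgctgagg
*Sparc*: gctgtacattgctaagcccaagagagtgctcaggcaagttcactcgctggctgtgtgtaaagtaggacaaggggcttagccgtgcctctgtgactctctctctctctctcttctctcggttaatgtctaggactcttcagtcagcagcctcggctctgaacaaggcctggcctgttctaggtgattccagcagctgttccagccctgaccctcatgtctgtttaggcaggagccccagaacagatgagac
The *Col1a2* window held 1 CCAAT, at position -109, and the *Col3a1* window held 1 TATAAA, at position -117. These letters were not in the *Sparc* window, nor in those of *Col6a1*, *Ltbp2* and *Prrx1*. Searched on both strands, CCAAT was present in 33.8% and TATAAA in 12.4% of 32851 mouse promoter windows of this length.

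With age, 8 of the 10 genes were higher in saline-treated than in young mice, and *Col1a2* and *Sparc* were lower. All 10 had lower fitted values in MCC950-treated than in saline-treated mice, with the values of *Col1a2* and *Sparc* close to 0. The median log2 fold change of the 10 genes was 1.45 with age and -0.81 with MCC950, against 0.02 and 0.0028 over all 16377 genes tested. At an adjusted p under 0.05 (edgeR's quasi-likelihood test with Benjamini-Hochberg adjustment over all genes), 6 of the 10 were called higher with age, where 12.2% of all genes were, and 2 were called lower, where 12.4% of all genes were. With MCC950 against saline, *Ltbp2* and *Prrx1* were called lower, 2 of the 10, where 4.86% of all genes were, and 0 were called higher, where 11.9% were. In 0 of the 10 genes were the MCC950-treated and saline-treated mice without overlap, which was seen in 0.586% of all genes in the lower and 1.15% in the higher direction. Across all genes, 29.8% had a fold change above 0 with age and below 0 with MCC950, and 0.769% were called in both directions. *Dcn* and *Col6a1*, although picked for opposite directions, were not called with MCC950, and *Col6a1* was not called with age. The comparisons share the saline-treated libraries, so a high saline value enters both with opposite sign, and nothing is read from these counts because the genes were chosen on them. The lower share of mitochondrial counts (median 57.5% with MCC950 and 68.6% with saline) moved with the MCC950 comparison. With mitochondrial genes left out of the fit the counts were again 2 lower and 0 higher. That refit drops only the mitochondrial genes themselves, so it cannot separate this share from treatment, and the part of the share was not tested.

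**Figure D1:**
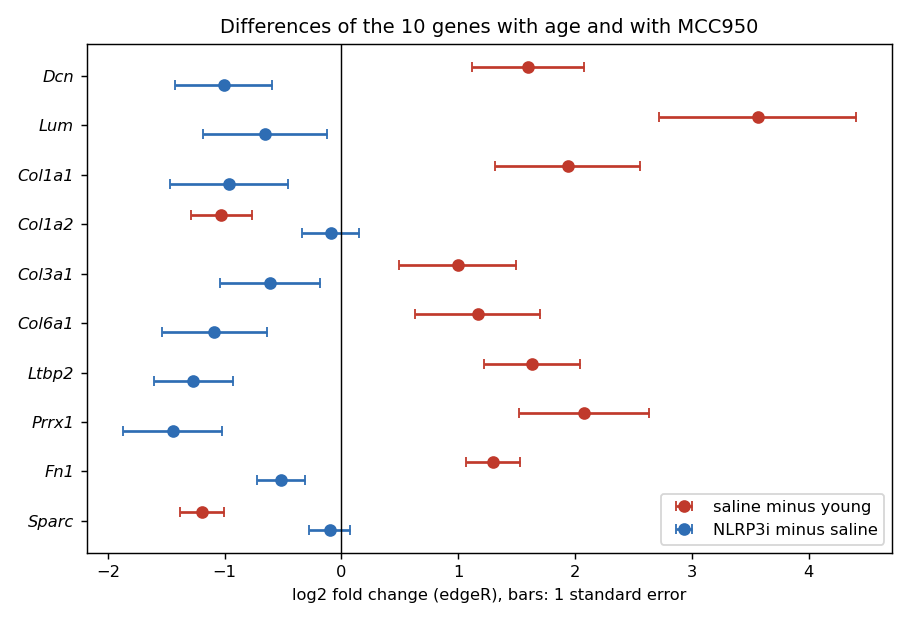
Log2 fold changes of the 10 genes (horizontal axis, edgeR, with bars of 1 standard error) for saline-treated minus young mice (red) and MCC950-treated minus saline-treated mice (blue). Red points lie right of 0 for 8 genes and left of 0 for *Col1a2* (-1.03) and *Sparc* (-1.19), and all blue points lie left of 0.

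*Dcn* encodes decorin, a small proteoglycan that binds collagen fibrils and TGF-beta. Its level was 0.821, 1.27 and 1.96 CPM (lowest, median and highest) in young, 1.87, 2.85 and 8.56 CPM in saline-treated and 0.276, 1.92 and 3.96 CPM in MCC950-treated mice. Of the saline-treated libraries 6 of 7 lay above all young libraries, and 4 of the 8 MCC950-treated libraries lay below all saline-treated ones, so the groups overlapped at both steps. Its log2 fold change was 1.60 (standard error 0.48) with age and -1.01 (standard error 0.41) with MCC950. Saline replicate 7 was the highest, and without it these values were 1.27 and -0.72.

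*Lum* encodes lumican, a keratan sulfate proteoglycan that also regulates fibril assembly. It was almost absent from young libraries, with 0 to 4 counts in each and 0 counts in 3 of 6, where 0 counts allow a level of up to 0.0747 to 0.125 CPM. The saline-treated libraries held 11 to 83 counts, or 0.201, 0.424 and 1.57 CPM, and the MCC950-treated libraries held 4 to 48 counts, or 0.0809, 0.388 and 0.768 CPM. All 7 saline-treated libraries lay above all young libraries, while the 2 middle-aged groups overlapped. The log2 fold change was 3.56 (standard error 0.84) with age, which rests on a young level near the detection limit, and -0.66 (standard error 0.53) with MCC950, or -0.23 without saline replicate 7. Such a higher saline-treated group with no overlap was seen in 4.51% of all genes tested, and among the 10 genes in *Lum* and *Fn1*.

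*Col1a1* encodes the alpha 1 chain of collagen I, the main fibrillar collagen. It had 0.129, 0.307 and 0.954 CPM in young, 0.728, 1.34 and 2.41 CPM in saline-treated and 0.0848, 0.716 and 1.57 CPM in MCC950-treated mice. In 5 of 7 saline-treated mice it was above all young mice, and 4 of 8 MCC950-treated mice were below all saline-treated mice. On the log2 scale it differed by 1.94 (standard error 0.62) with age and by -0.96 (standard error 0.50) with MCC950.

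*Col3a1* encodes collagen III, which is laid down with collagen I in vessel walls and interstitium. It had 0.232, 0.546 and 1.07 CPM in young, 0.599, 0.948 and 2.41 CPM in saline-treated and 0.148, 0.653 and 1.68 CPM in MCC950-treated mice. The ranges of all 3 groups overlapped, with 3 of 7 saline-treated mice above all young mice and 3 of 8 MCC950-treated mice below all saline-treated mice. Its differences were a log2 fold change of 1.00 (standard error 0.50) with age and -0.61 (standard error 0.43) with MCC950, or 0.70 and -0.34 without saline replicate 7.

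*Col1a2* encodes the alpha 2 chain, the partner of *Col1a1* in collagen I, and it ran the other way. It had 1.52, 3.80 and 5.04 CPM in young, 0.998, 1.86 and 2.38 CPM in saline-treated and 1.18, 1.58 and 2.73 CPM in MCC950-treated mice. Of the young mice 5 of 6 lay above all saline-treated mice, the exception being young replicate 5, at 27 counts. Its log2 fold changes were -1.03 (standard error 0.26) with age and -0.09 (standard error 0.24) with MCC950.

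The 2 chains of collagen I were thus not in a fixed ratio across these libraries, but in young and some MCC950-treated libraries the ratio rests on few *Col1a1* counts. Each young library held 4 to 17 of them, each saline-treated library 51 to 127 and each MCC950-treated library 4 to 86. *Col1a1* counts divided by *Col1a2* counts gave 0.0267, 0.0717 and 0.630 (lowest, median and highest) in young libraries, 0.567, 0.722 and 1.06 in saline-treated and 0.0310, 0.427 and 0.977 in MCC950-treated libraries. Young replicate 5, at 0.630, was the young library that fell within the saline-treated range. The MCC950-treated libraries were spread widely, with 4 of 8 at or below 0.25 and 4 of 8 at or above 0.604. The ratio of *Col3a1* to *Col1a2* counts showed the same order of medians, 0.118 in young, 0.610 in saline-treated and 0.385 in MCC950-treated libraries.

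**Figure D2:**
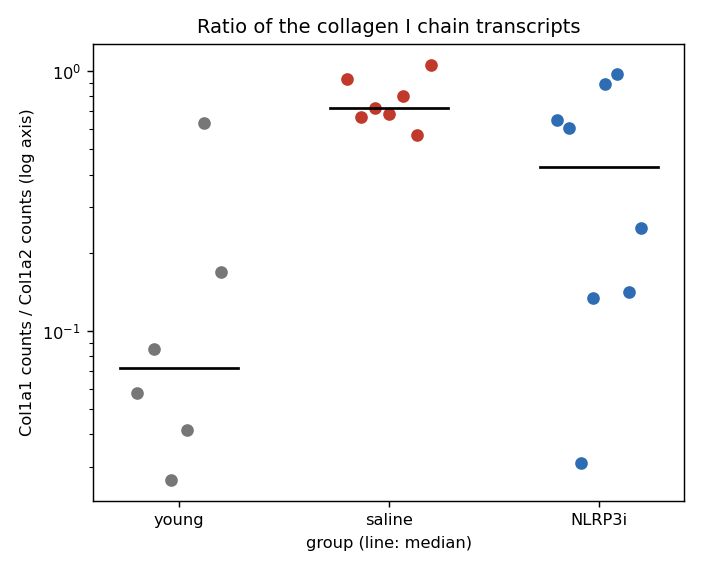
*Col1a1* counts divided by *Col1a2* counts in each library (vertical log axis, no unit) for 6 young, 7 saline-treated and 8 MCC950-treated (NLRP3i) mice, with a line at the group median (0.0717, 0.722 and 0.427). Each point is 1 mouse, 5 of 6 young mice lie below all saline-treated mice, and the MCC950-treated mice spread from 0.0310 to 0.977. The young libraries held only 4 to 17 *Col1a1* counts each.

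*Col6a1* encodes a chain of collagen VI, the microfibrillar collagen around cells. It had 0 to 10 counts in young, 9 to 43 in saline-treated and 2 to 19 in MCC950-treated libraries. Its level was 0, 0.187 and 0.418 CPM, then 0.165, 0.402 and 0.838 CPM, then 0.0424, 0.209 and 0.377 CPM in the same order, and the 1 young library with 0 counts allows up to 0.0968 CPM. The groups overlapped throughout, with 3 of 7 saline-treated mice above all young mice. In log2 fold changes this was 1.17 (standard error 0.53) with age and -1.09 (standard error 0.45) with MCC950.

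*Ltbp2* encodes a latent TGF-beta binding protein of elastic microfibrils. It had 0.0996, 0.278 and 0.505 CPM in young, 0.251, 0.916 and 1.34 CPM in saline-treated and 0.106, 0.306 and 0.577 CPM in MCC950-treated mice. Of the saline-treated mice 6 of 7 were above all young mice, and saline replicate 4, the lowest of its group at 13 counts, lay among the other groups. The fitted log2 fold change was 1.63 (standard error 0.41) with age and -1.27 (standard error 0.34) with MCC950.

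*Prrx1* encodes a homeodomain transcription factor of mesenchymal cells and fibroblasts. It had 0 to 4 counts in young, 10 to 25 in saline-treated and 2 to 13 in MCC950-treated libraries, the lowest counts of the 10 genes per kilobase. Its level was 0, 0.0810 and 0.146 CPM in young, 0.143, 0.311 and 0.487 CPM in saline-treated and 0.0424, 0.105 and 0.238 CPM in MCC950-treated mice, and the 2 young libraries with 0 counts allow up to 0.0994 and 0.125 CPM. Saline-treated mice were above all young mice in 6 of 7 cases, and MCC950-treated mice were below all saline-treated mice in 5 of 8. The log2 fold change was 2.08 (standard error 0.56) with age and -1.45 (standard error 0.42) with MCC950. *Prrx1*, like *Lum*, passed the filter on low counts through middle-aged libraries, where it was higher, and it failed that filter in 6 of the 21 fits that each left out 1 library.

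*Fn1* encodes fibronectin, a glycoprotein made by many cell types. It had 4.13, 7.02 and 8.70 CPM in young, 11.8, 14.1 and 31.6 CPM in saline-treated and 7.48, 10.7 and 16.0 CPM in MCC950-treated mice. All saline-treated mice lay above all young mice, and 5 of 8 MCC950-treated mice lay below all saline-treated mice. The log2 fold change was 1.30 (standard error 0.23) with age and -0.52 (standard error 0.20) with MCC950. Saline replicate 5 stood apart at 31.6 CPM, and without it the values were 1.06 (standard error 0.18) and -0.28 (standard error 0.16).

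*Sparc* encodes osteonectin, a collagen-binding matricellular protein that podocytes and endothelial cells also make. It had 12.4, 22.9 and 29.0 CPM in young, 6.10, 10.4 and 11.4 CPM in saline-treated and 6.20, 8.83 and 11.7 CPM in MCC950-treated mice. All middle-aged mice, saline-treated or MCC950-treated, lay below all young mice, as was seen in 4.86% of genes for saline-treated and 4.66% for MCC950-treated against young mice. Its log2 fold change was -1.19 (standard error 0.19) with age and -0.10 (standard error 0.18) with MCC950.

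**Figure D3:**
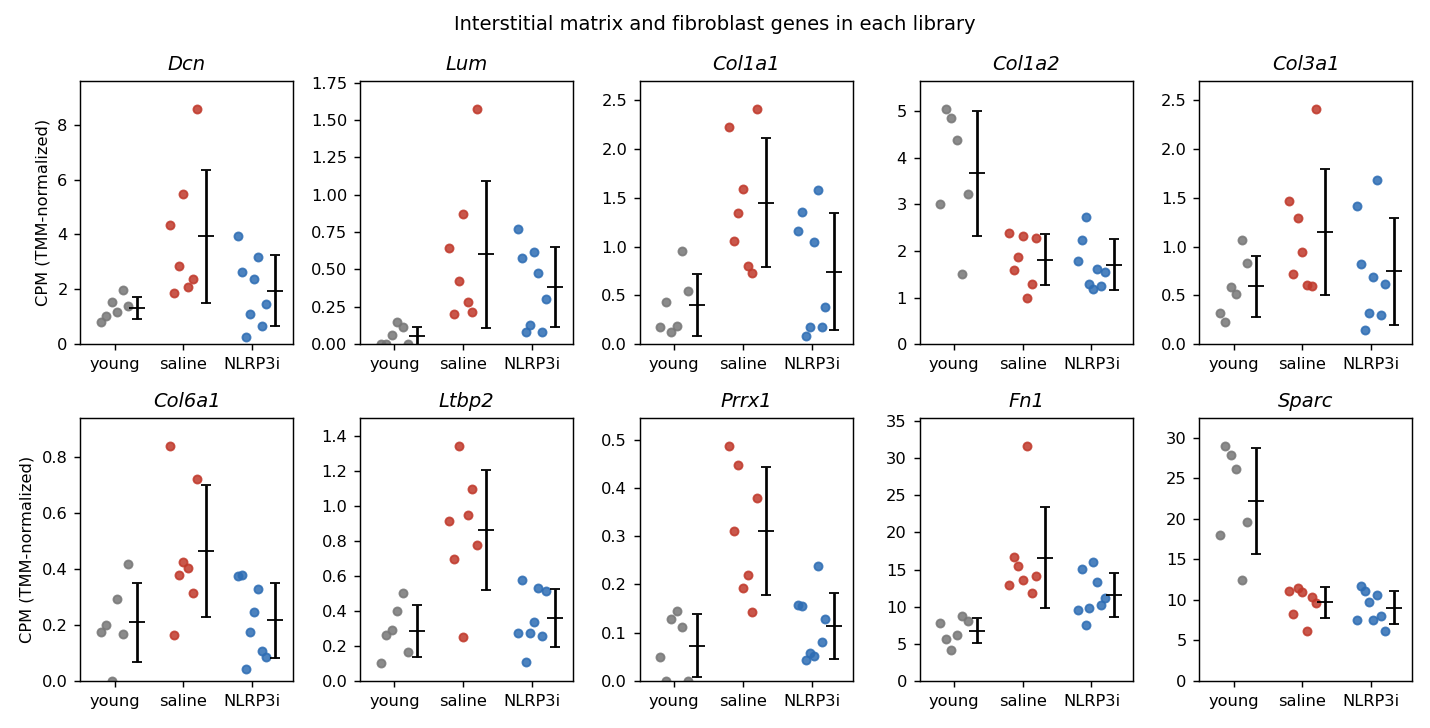
Level of each of the 10 genes in each library (vertical axes, CPM after TMM normalisation, a different scale for each gene) in young, saline-treated and MCC950-treated (NLRP3i) mice. Points are mice, and the cross bar and whiskers are the mean and SD of 6, 7 and 8 mice. *Lum* and *Fn1* show no overlap between young and saline-treated mice, *Sparc* and *Col1a2* are highest in young mice, and 1 saline-treated mouse stands apart in *Fn1* at 31.6 CPM.

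Single mice were at the ends of their group for several genes at once. MCC950 replicate 3 was the lowest of its group for 7 of the 10 genes (*Dcn*, *Col1a1*, *Col3a1*, *Col6a1*, *Ltbp2*, *Prrx1* and *Fn1*) and the highest for *Col1a2*. Saline replicate 7 was the highest of its group for *Dcn*, *Lum*, *Col1a1* and *Col3a1*. Young replicate 5 was the highest young mouse for *Dcn*, *Col1a1*, *Col3a1*, *Ltbp2* and *Fn1* and the lowest for *Col1a2* and *Sparc*, and it had the fewest counts outside mitochondrial genes, 5804891, though not the lowest total. These libraries were picked out after their values were seen.

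Per kilobase of transcript, *Sparc* had the highest level in every group, with 9.63 ± 2.84 (SD, n = 6), 4.22 ± 0.834 (SD, n = 7) and 3.93 ± 0.872 (SD, n = 8) CPM per kb in young, saline-treated and MCC950-treated mice, and *Prrx1* had the lowest. In young mice *Fn1* (0.816), *Dcn* (0.750) and *Col1a2* (0.686 CPM per kb) followed, and these neighbours did not differ by more than the larger SD. In saline-treated mice *Dcn* was at 2.24 ± 1.38 (SD, n = 7) and *Fn1* at 2.00 ± 0.822 (SD, n = 7) CPM per kb, again within the spread, and *Col1a2* followed at 0.339 CPM per kb, a gap larger than the SD. In MCC950-treated mice the order was *Fn1* (1.39), *Dcn* (1.11) and *Col1a2* (0.319 CPM per kb). *Col1a1* was below *Col1a2* in the mean of every group on this scale, at 0.0679, 0.245 and 0.126 CPM per kb.

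MCC950-treated mice were also set against the young mice, with which both other comparisons share libraries. On the log2 scale the difference was 2.91 (standard error 0.85) for *Lum*, 0.98 (standard error 0.61) for *Col1a1*, 0.78 (standard error 0.22) for *Fn1* and 0.59 (standard error 0.47) for *Dcn*. It was 0.63 (standard error 0.59) for *Prrx1*, 0.38 (standard error 0.49) for *Col3a1*, 0.36 (standard error 0.41) for *Ltbp2* and 0.08 (standard error 0.54) for *Col6a1*. *Col1a2* and *Sparc* were lower, with -1.12 (standard error 0.25) and -1.30 (standard error 0.18). Of the 10 genes 2 were called higher (*Lum* and *Fn1*), where 21.8% of all genes were, and 2 lower (*Col1a2* and *Sparc*), where 16.5% were. The MCC950-treated mice were above all young mice in 0 of the 10 genes, against 3.28% of all genes. The smaller of these differences depended on single mice. That of *Col6a1* ranged from -0.23 (without young replicate 3) to 0.35 (without young replicate 6), and that of *Col3a1* from 0.098 (without MCC950 replicate 6) to 0.58 (without young replicate 5). *Dcn* was at 0.36 without MCC950 replicate 1, *Prrx1* at 0.33 without young replicate 2 and *Ltbp2* at 0.15 without young replicate 1.

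To see how the rest of the interstitial matrix behaved, 103 other genes in 8 lists of collagens, proteoglycans, elastic fibre proteins, collagen-processing enzymes, matricellular proteins, proteases, fibroblast identity genes and matrix receptors were read from the same fit, and 89 of them passed the filter on low counts. With age, 8 of the 89 (8.99%) were higher and 31 (34.8%) were lower at an adjusted p under 0.05, where 12.2% and 12.4% of all genes were, and the median log2 fold change was -0.29. The median of the 10 genes was 1.45, but some of them were picked for their direction in these libraries, so nothing is read from the contrast of these medians. Markers moved with these lists: 9 of 10 podocyte, 7 of 10 mesangial and 7 of 8 endothelial markers were lower with age, and 3 of 8 macrophage and 5 of 8 B cell markers were higher. The part of these cell types in the list counts was not tested.

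The rises with age were few and in several lists. *Fbln1*, the elastic fibre protein fibulin 1, was higher by 2.55 on the log2 scale (standard error 0.66, edgeR, adjusted p = 0.00752), and *Mmp9*, a gelatinase of neutrophils and macrophages, by 2.43 (standard error 0.46, adjusted p = 0.00068). *Thy1*, a surface protein of fibroblasts and T cells, rose by 1.68 (standard error 0.31, adjusted p = 0.000633), and the calcium-binding protein gene *Smoc2* by 1.57 (standard error 0.34, adjusted p = 0.00195). In *Mmp9*, *Thy1*, *Smoc2* and the hyaluronan receptor gene *Cd44* (log2 fold change 1.14) all saline-treated mice were above all young mice, as was seen in 4.51% of all genes tested. *Smoc2* had 0.927 ± 0.387 CPM (SD, n = 7) in saline-treated and 0.308 ± 0.115 CPM (SD, n = 6) in young mice. Young levels were also low for *Fbln1* (0.198 ± 0.201 CPM, SD, n = 6) and *Mmp9* (0.538 ± 0.272 CPM, SD, n = 6). The sizes of these differences therefore rest on few counts in young mice.

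The falls with age covered every list. Of the fibroblast identity genes 9 of 16 fell and 1 rose, with log2 fold changes of -2.68 for *Foxd1* (standard error 0.40, adjusted p = 8.27e-05 by edgeR) and -2.12 for *Tcf21* (standard error 0.30, adjusted p = 5.79e-05), transcription factors of kidney stroma that podocytes also express. Among the fibroblast markers, *Pdgfrb*, *Pi16* and *Pdgfra* fell and *Thy1* and *Fbln1* rose, so the list did not move in a single direction. Of the collagen-processing enzymes 4 of 16 fell and 0 rose: the lysyl oxidase gene *Loxl2* by -1.71 (standard error 0.26, adjusted p = 0.000111), the lysyl hydroxylase gene *Plod2* by -1.37 (standard error 0.15, adjusted p = 7.17e-06) and the prolyl hydroxylase gene *P4ha2* by -1.14 (standard error 0.15, adjusted p = 3.4e-05) were the largest. Of the elastic fibre genes 5 of 13 fell, among them *Ltbp1* and *Ltbp4*, relatives of *Ltbp2*, with -0.91 (standard error 0.16) and -0.70 (standard error 0.17). Of the other interstitial collagens 2 of 10 fell, *Col8a1* by -1.01 (standard error 0.18, adjusted p = 0.000478) and *Col15a1* by -0.79 (standard error 0.22, adjusted p = 0.0117), and 0 rose.

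With MCC950 against saline, 6 of the 89 genes (6.74%) rose and 11 (12.4%) fell, where 11.9% and 4.86% of all genes did, and the median log2 fold change was -0.06. The falls were in elastic fibre genes (5 of 13), matricellular genes (4 of 9) and proteoglycans (2 of 8). Among the elastic fibre genes *Ltbp1* and *Ltbp4* were only just under the threshold (adjusted p = 0.0473 and 0.0498 by edgeR). *Fbln2* fell by 1.01 on the log2 scale (standard error 0.19, adjusted p = 0.00301 by edgeR) and *Fbln5* by 0.81 (standard error 0.14, adjusted p = 0.00136), and both encode fibulins, which join elastin to microfibrils. *Ecm2* had -0.997 (standard error 0.18, adjusted p = 0.00237), the small proteoglycan gene *Ogn* -0.98 (standard error 0.26, adjusted p = 0.0148) and *Sparcl1*, a relative of *Sparc*, -0.95 (standard error 0.22, adjusted p = 0.00844). *P4ha2* rose by 0.90 (standard error 0.14, adjusted p = 0.000979), *Col8a1* by 0.82 (standard error 0.17, adjusted p = 0.0048) and the stromal transcription factor gene *Osr1* by 1.06 (standard error 0.29, adjusted p = 0.0172). The other 3 rises, in *Col16a1*, *P4ha1* and *Plod2*, were lost without saline replicate 4 (adjusted p = 0.0927, 0.0853 and 0.0623 by edgeR). *Col16a1* also lost its call without saline replicate 2, 3, 6 or 7 or MCC950 replicate 1, 3 or 8 (adjusted p from 0.0602 to 0.0916), *P4ha1* without saline replicate 1, 2 or 6 or MCC950 replicate 8 (0.0502 to 0.0762) and *Plod2* without saline replicate 3 or 7 (0.0517 and 0.0556). Beside these, 5 of 10 podocyte and 5 of 8 proximal tubule markers were higher with MCC950, and 0 of 8 fibroblast markers were called in either direction. Their part in the result was not tested.

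**Figure D4:**
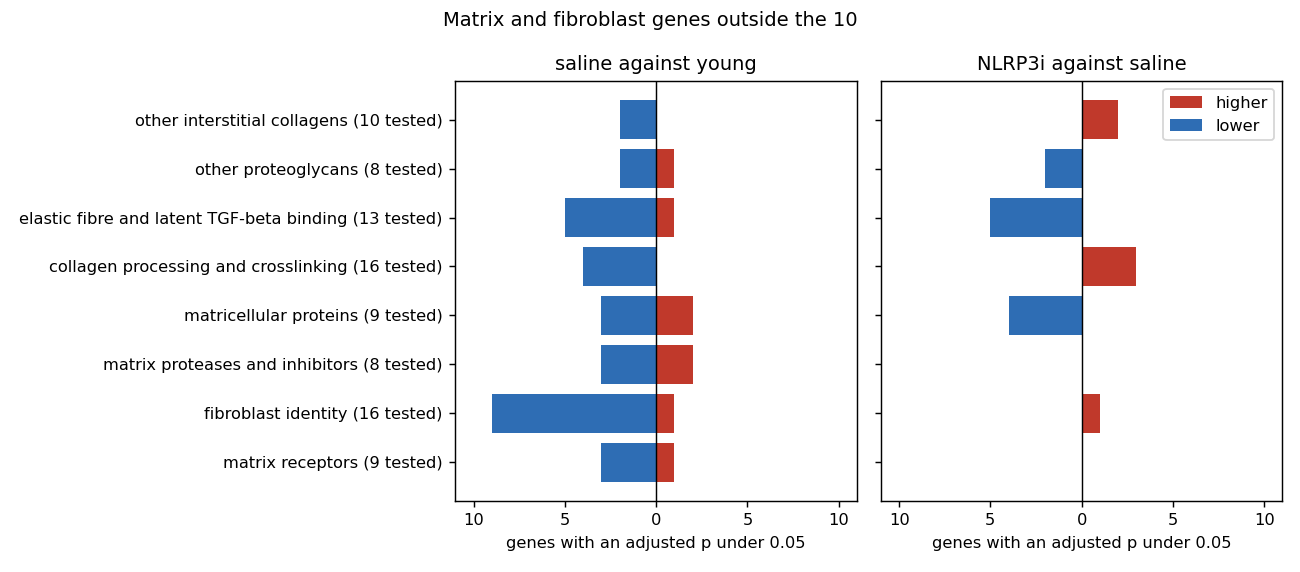
Number of genes in each of 8 matrix and fibroblast lists (vertical axis, with the number tested) called higher (red, right of 0) or lower (blue, left of 0) at an adjusted p under 0.05 by edgeR, for saline-treated against young and MCC950-treated (NLRP3i) against saline-treated mice. With age the bars point mostly left (31 lower, 8 higher), the longest being fibroblast identity with 9 lower. With MCC950 the elastic fibre (5), matricellular (4) and proteoglycan (2) bars point left.

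Against young mice, 10 of the 89 genes (11.2%) were higher and 40 (44.9%) lower in MCC950-treated mice, where 21.8% and 16.5% of all genes were, and the median log2 fold change was -0.42. Beside these, 9 of 10 podocyte, 9 of 10 mesangial and 8 of 8 endothelial markers were lower, and their part in the counts was not tested. Of the elastic fibre genes 11 of 13 were lower, including *Fbln2* (-1.39, standard error 0.20, adjusted p = 3.13e-05 by edgeR), *Ltbp1* (-1.34, standard error 0.15, adjusted p = 3.52e-06) and the elastin gene *Eln* (-1.23, standard error 0.22, adjusted p = 0.000214). *Thbs2* (-1.61, standard error 0.21, adjusted p = 1.25e-05) and *Ecm2* (-1.78, standard error 0.19, adjusted p = 2.29e-06) were lower in all 8 MCC950-treated mice than in any young mouse. The same held for *Fbln2*, *Ltbp1* and *Eln*, and such a lower group with no overlap was seen in 4.66% of all genes tested. For *Ecm2* the mean was 2.58 ± 0.208 CPM (SD, n = 6) in young, 1.50 ± 0.328 CPM (SD, n = 7) in saline-treated and 0.749 ± 0.259 CPM (SD, n = 8) in MCC950-treated mice.

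Variation among mice of the same group was not used to choose the genes, and it was tested across all 21 libraries as deviations of log2 CPM from the group mean. Of the 45 pairs of genes 13 varied together or in opposite directions at an adjusted p under 0.05 (two-sided permutation within groups, Benjamini-Hochberg over the 45 pairs), 11 of them with a positive correlation. *Dcn*, *Lum*, *Col1a1* and *Col3a1* formed a block in which every pair passed. The closest pair was *Dcn* and *Col3a1*, with Pearson's r = 0.894 (permutation p = 1e-05, the smallest that the resamples allow, adjusted p = 0.000225), Spearman's rho = 0.849 (adjusted p = 0.000225) and r = 0.847 without the 2 libraries farthest from the median. *Dcn* and *Lum* had r = 0.851, *Dcn* and *Col1a1* 0.842, *Col1a1* and *Col3a1* 0.830, and *Lum* and *Col3a1* 0.782. *Col6a1* varied with *Col1a1* (r = 0.689) and with *Dcn* (r = 0.565, or 0.412 without the 2 farthest libraries), and *Prrx1* with *Lum* (r = 0.629) and *Col3a1* (r = 0.604). *Ltbp2* was in 0 of these pairs. The young libraries held 0 to 4 counts of *Lum* and of *Prrx1*, so the pairs were also tested over the 15 middle-aged libraries alone, a setting added after seeing the data. There 13 pairs passed, 10 of them among the 13 above. The block of *Dcn*, *Lum*, *Col1a1* and *Col3a1* passed whole (r from 0.871 to 0.935), *Prrx1* and *Col3a1* had r = 0.798 (permutation p = 0.00096, adjusted p = 0.00432, rho = 0.807), and *Prrx1* and *Lum*, with r = 0.509, did not pass (permutation p = 0.0648, adjusted p = 0.162, rho = 0.421).

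*Col1a2* and *Sparc* formed a pair apart from this block, with r = 0.807 (permutation p = 0.00014, adjusted p = 0.00126), rho = 0.788 (adjusted p = 0.00108) and r = 0.625 without the 2 farthest libraries. Both had a negative r with *Fn1*. For *Col1a2* and *Fn1* r was -0.608 (permutation p = 0.00493, adjusted p = 0.0185) and rho -0.578 (adjusted p = 0.0328), with r = -0.416 without the 2 farthest libraries. For *Sparc* and *Fn1* r was -0.583 (permutation p = 0.00983, adjusted p = 0.034), but rho, -0.468, did not pass (adjusted p = 0.116), and r was -0.350 without the 2 farthest libraries. No correlation was detected between the 2 chains of collagen I over all mice (r = -0.080, permutation p = 0.733, adjusted p = 0.943, rho = 0.017). Within groups that correlation was -0.68 in young, 0.91 in saline-treated and -0.07 in MCC950-treated mice, and whether these differ was not tested. Over the middle-aged libraries alone *Col1a2* and *Sparc* had r = 0.659 (permutation p = 0.0103, adjusted p = 0.0357, rho = 0.657), and neither pair with *Fn1* passed (r = -0.534 for *Col1a2* and -0.472 for *Sparc*). Without MCC950 replicate 3 the number of pairs that passed was 8 in place of 13.

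**Figure D5:**
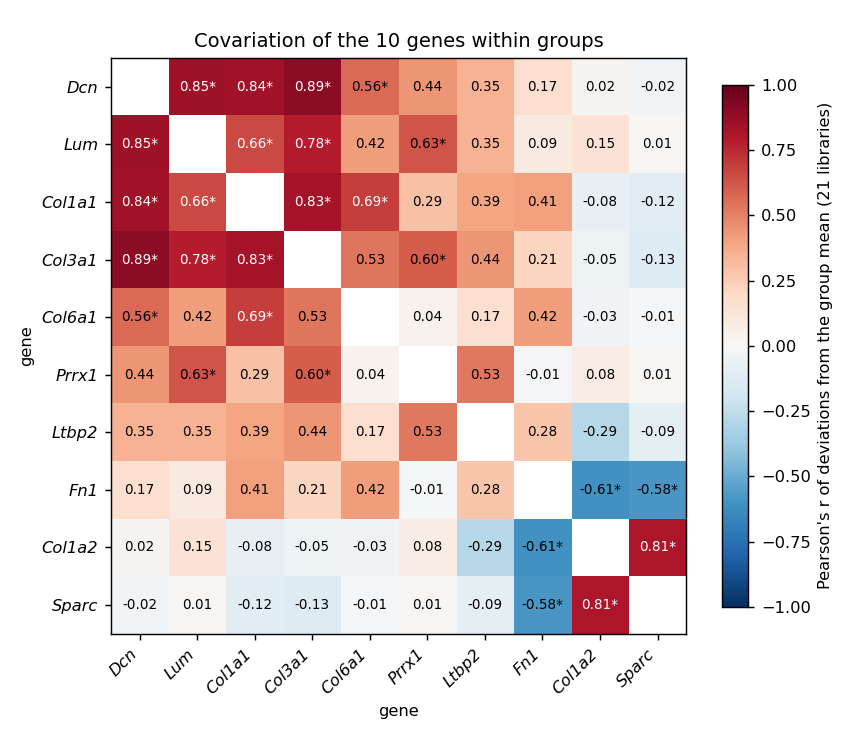
Pearson's r between the 10 genes (both axes) over 21 libraries, from deviations of log2 CPM from the group mean, with an asterisk where the adjusted p was under 0.05. *Dcn*, *Lum*, *Col1a1* and *Col3a1* form a red block at the upper left (r from 0.66 to 0.89), and *Col1a2* and *Sparc* form a separate pair at the lower right (r = 0.81).

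High correlations were uncommon among all genes. An r of at least 0.7 with *Dcn* was reached by 23 of 16376 other genes (0.14%) and by 3 of the 9 other members, and with *Col3a1* by 17 genes (0.104%) and 3 of 9. With *Sparc* it was reached by 219 genes (1.34%), and with *Col1a2* by 127 genes (0.776%), in each case with 1 of the 9 other members. For *Lum* and *Col1a1* it was 2 of 9 each, and for *Col6a1*, *Ltbp2*, *Prrx1* and *Fn1* 0 of 9. Beyond the 3 members, the genes closest to *Dcn* were *C7* (r = 0.840), *Clec3b* (0.832), *Fbln1* (0.818) and *Col6a2* (0.800), a choice made after the values were seen. *C7* encodes a complement component, and *Col6a2* encodes the partner chain of *Col6a1*. In falling order, the genes closest to *Sparc* were *Aplp1* (r = 0.914), *Cdkn1c* (0.911), *Wt1* (0.888), *Ccn2* (0.885), *Rhbdl3* (0.883), *Serpine2* (0.882) and *Podxl* (0.882). Of these *Cdkn1c*, *Wt1* and *Podxl* are on the list of podocyte markers, and this choice too was made after the values were seen.

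The mean log2 CPM of the podocyte markers varied with *Sparc* (r = 0.892, rho = 0.900, permutation p = 1e-05, adjusted p = 0.0009 over 90 pairs of a gene and a measure, 0.828 without the 2 farthest libraries) and with *Col1a2* (r = 0.751, rho = 0.699, permutation p = 0.00039, adjusted p = 0.0117, 0.593 without the 2 farthest). The endothelial markers varied with the same genes, with r = 0.784 for *Sparc* (rho = 0.774, permutation p = 9e-05, adjusted p = 0.00405) and 0.702 for *Col1a2* (rho = 0.600, permutation p = 0.00098, adjusted p = 0.022, while the adjusted p of rho was 0.124). These 4 were the pairs that passed of the 90, and they were computed after the other results were known. With *Dcn* the podocyte markers had r = -0.038. The fibroblast markers had r = 0.563 with *Dcn* (adjusted p = 0.0909 by permutation), 0.584 with *Col1a1* (adjusted p = 0.0589) and 0.560 with *Col3a1* (adjusted p = 0.0909), and none of these passed. The mesangial and smooth muscle markers had similar values for *Dcn* (r = 0.601, adjusted p = 0.188 by permutation) and *Col1a1* (0.601, adjusted p = 0.192). For *Col3a1* their r was lower (0.428, adjusted p = 0.524), and none of these passed either. The share of mitochondrial counts had r from -0.243 (*Fn1*) to 0.333 (*Col3a1*). For the log2 number of counts outside mitochondrial genes r ran from -0.445 (*Col3a1*, adjusted p = 0.295 by permutation) to 0.153 (*Fn1*). It was -0.403 for *Col1a1*, -0.355 for *Lum* and -0.253 for *Dcn*, and the part of depth was not tested further. The part of podocyte or endothelial RNA in the lower *Sparc* and *Col1a2* of middle-aged mice was not tested.

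By a rule set for likeness to the mean of all 10 genes within groups, the 5 most similar of 12251 other genes with an average of at least 1 log2 CPM included *Egfl6* (r = 0.771), *Zfp994* (0.771), *Nccrp1* (0.747) and *Tagln* (0.744), over 21 libraries and with no test. *Tagln* encodes transgelin of smooth muscle cells and *Egfl6* a secreted matrix protein. With MCC950 against saline their log2 fold changes were -1.15, -0.35, -0.63 and -0.50 in that order, and with age 0.47, -0.05, 0.74 and -0.55, so that the difference with age was not in a single direction.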

How the data were processed

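Per the labels and the methods, the authors used Trim Galore for trimming, Bowtie2 for alignment to mm10 (GRCm38) and featureCounts for the counts of each gene. The deposited values used here are these raw counts per Entrez Gene number, one table for each of 21 libraries. The annotation release and strand setting are not given in the sources used here, and Bowtie2 does not split reads over introns, so reads over exon junctions of many-exon genes such as collagens may be missing from the counts. A deposited normalized table covers 20 of the 21 libraries and was not used. Gene names came from RefSeq for 25275 and GENCODE for 18 gene numbers, and 1886 had no name. No pair of libraries of a group agreed within sampling noise (lowest chi-square per degree of freedom 17.7). CPM used TMM library sizes, and CPM per kb the longest GENCODE transcript with a RefSeq match.

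For differences, 1 fit of all 3 groups was made with edgeR 4.0.16 (R 4.3.3) and its quasi-likelihood F test, after TMM and filterByExpr by group, on 16377 genes, with Benjamini-Hochberg adjusted p under 0.05. Standard errors were taken as the absolute log2 fold change over the root of F. Correlations used log2 CPM with a prior count of 2, deviations from the group mean and 100000 permutations within groups (Python 3.11.15, numpy 2.4.6, scipy 1.17.1). The fits were tested on simulated data. Named genes are the 10 members, up to 3 genes a list and direction with the largest change among those that passed, and the 5 most like the members. The result of 1 gene is not reported here. The members, lists and tests were chosen with earlier results of these data known. DESeq2 1.42.0 and other settings were alternatives. Libraries were grouped by their labels, and the labels' replicate numbers were not used as pairs in the fit of all 3 groups. Libraries of the same number correlated from -0.144 to 0.401 over 19 pairs of libraries. Pairs of different numbers were not set beside these, so the range cannot decide whether the numbers pair libraries.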

Additional observations from a re-analysis of the deposited data

Results flagged for a closer look

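*Fn1* in saline replicate 5, at 31.6 CPM, lay far from the other 6 saline-treated mice, the nearest of which was at 16.7 CPM, a gap of 0.752 of the range of the group. Chance marks about 1 in 20 groups in this way, and 30 groups (10 genes in 3 groups) were examined. The library also had the lowest *Col1a2* and *Sparc* of its group.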

How the results depend on the processing

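Where each library had to reach 10 counts, 4 of the 10 genes (*Dcn*, *Col1a2*, *Fn1* and *Sparc*) could be fitted, so the number above 0 was 2 with age and 2 for MCC950-treated against young mice, and among the 103 other matrix genes 4 were higher with age and 5 higher in MCC950-treated than in young mice. When only the 2 groups compared entered a fit, *Lum* and *Prrx1* failed the filter on low counts in the comparisons with young mice. Leaving out each library in turn, the other matrix genes higher with age numbered 6 to 9 and lower 27 to 34. Of the 10 genes 7 to 8 were above 0, and the number was 7 where *Prrx1* failed the filter and had no fit. With MCC950 against saline 3 to 8 were higher (3 without saline replicate 4) and 9 to 14 lower, and 0 of the 10 genes were above 0. Against young mice 7 to 11 were higher and 36 to 42 lower, with 6 to 8 of the genes that could be fitted above 0. The pairs that varied together numbered 8 (without MCC950 replicate 3) to 15, and 13 over the middle-aged libraries alone. *Prrx1* lost its fit without saline replicate 1, 2, 3, 5 or 7 or MCC950 replicate 6, which left 1 of the 10 genes called lower with MCC950 in place of 2, as did leaving out MCC950 replicate 5. Of the 10 genes, 6 were called higher with age, and this was 4 without saline replicate 7, 4 with only the 2 groups compared and 2 where each library had to reach 10 counts. The replicate number as a block gave 5, and whether these numbers pair libraries was not settled. Of 800 fitted differences of the 10 genes under these settings 2 moved by their standard error or more, both of *Fn1* without saline replicate 5, and 0 of those called changed sign. Of 74 results for named list genes, 4 lost their call in a setting other than a left-out library and 11 without 1 library. The causes were not tested. Counts of 0 to 4 in young libraries limit *Lum* and *Prrx1*, and counts of 4 to 17 limit the ratio of *Col1a1* to *Col1a2*.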
